A study of Rattus norvegicus with 2 samples.

Results

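Small leucine-rich proteoglycans are secreted proteins of the extracellular matrix, and 9 genes of this family were followed in rat bone mesenchymal stem cells (BMSCs), namely Dcn, Bgn, Lum, Fmod, Omd, Ogn, Prelp, Aspn and Kera. The genes were chosen by name, and their sequences were found through the gene symbol or gene identifier that the array annotation gives. They made up 9 of the 24210 genes and 10 of the 26419 sequences on the array, because Ogn was represented by 2 sequences. In the array annotation Aspn carries no symbol of its own and is described as similar to an asporin precursor, and its gene identifier led to the current name. Gene expression was measured on 2 NimbleGen arrays, 1 with RNA of Icariin-treated BMSCs and 1 with RNA of DMSO-treated BMSCs. Icariin, a flavonol glycoside of Epimedium, was given at 20 μM for 24 h, and DMSO is its solvent. The cells were adherent marrow cells of Sprague–Dawley rats that were 4 weeks old, described as male in the methods and as female in the sample labels.

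Proteins of this family carry a horseshoe of leucine-rich repeats that binds collagen. They coat collagen fibrils, limit fibril diameter and hold growth factors such as TGF-beta in the matrix. Decorin and biglycan carry chondroitin or dermatan sulfate chains, whereas lumican, fibromodulin, keratocan, osteomodulin and osteoglycin can carry keratan sulfate. Several members are known from bone, where biglycan and osteomodulin are matrix components made by cells of the osteoblast lineage.

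With 1 array for each condition, the differences described here carry no replicate check, and no p-value or error across arrays could be given. The values are intensities, and those of different genes rest on different probes, so levels were compared between the arrays and not between genes. Olfactory and vomeronasal receptor genes, 1411 in all, served as genes that BMSCs are taken not to use. Their 95th percentile, here called the background limit, was 168 on the Icariin array and 148 on the DMSO array, and a lower value cannot be told apart from background. Of 16 marrow stromal markers, 14 lay above the background limit on both arrays, against 38.4% of all genes. The summed intensities of all 16, led by Col1a1 and Col1a2, were 122284 on the Icariin array and 109981 on the DMSO array. Of 19 macrophage markers, 18 lay above the background limit on the Icariin array, against 44.2% of all genes, and 11 on the DMSO array, against 48.2%. On the Icariin array 13 were higher by 2-fold or more, 7 of them among the 11 above the limit on both arrays. By comparison, 6.51% of all genes were 2-fold higher, and 2.96% of the genes above the limit on both arrays. Lyz2 was 8.58-fold, C1qa 6.19-fold and C1qc 4.33-fold higher. The summed intensities of the 19 markers were 21485 on the Icariin array and 7179 on the DMSO array, and Cd163 was not above the background limit on either. The part of this difference in the values below was not tested, and in bulk RNA fewer cells of a type and less RNA per cell cannot be told apart.

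Most of the members lie next to another member in the genome. In the RefSeq annotation of the GRCr8 assembly, Dcn, Lum and Kera follow each other on chromosome 7 as protein-coding genes, with Epyc, a further family member, after Kera. Ogn, Omd and Aspn follow each other on chromosome 17, Prelp and Fmod lie side by side on chromosome 13 next to Optc, and Bgn lies on chromosome X between Haus7 and Atp2b3. Within the first of these clusters, Lum lay above the background limit on both arrays while Kera lay below it on both. Within the second, Ogn lay above it on both arrays while Omd, its neighbour, lay below it on both. The promoters of these pairs, taken from RefSeq, are shown to set neighbouring genes that were and were not measured above background side by side. Each runs 5′ to 3′ over 300 bases, 250 before and 50 after the annotated start of the transcript.
Lum, GRCr8 chr7:34245456-34245755, plus strand: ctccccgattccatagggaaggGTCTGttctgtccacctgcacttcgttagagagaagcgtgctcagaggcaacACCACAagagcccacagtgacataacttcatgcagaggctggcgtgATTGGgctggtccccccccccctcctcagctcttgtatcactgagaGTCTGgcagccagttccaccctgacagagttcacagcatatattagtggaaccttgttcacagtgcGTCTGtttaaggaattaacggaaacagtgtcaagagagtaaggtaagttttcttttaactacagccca
Kera, GRCr8 chr7:34283850-34284149, plus strand: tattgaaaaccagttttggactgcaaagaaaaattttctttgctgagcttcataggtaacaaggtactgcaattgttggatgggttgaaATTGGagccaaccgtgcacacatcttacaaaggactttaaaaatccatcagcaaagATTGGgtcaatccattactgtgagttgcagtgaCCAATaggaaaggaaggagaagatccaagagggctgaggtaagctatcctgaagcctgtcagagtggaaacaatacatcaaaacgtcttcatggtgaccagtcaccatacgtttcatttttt
Ogn, GRCr8 chr17:15258946-15259245, minus strand: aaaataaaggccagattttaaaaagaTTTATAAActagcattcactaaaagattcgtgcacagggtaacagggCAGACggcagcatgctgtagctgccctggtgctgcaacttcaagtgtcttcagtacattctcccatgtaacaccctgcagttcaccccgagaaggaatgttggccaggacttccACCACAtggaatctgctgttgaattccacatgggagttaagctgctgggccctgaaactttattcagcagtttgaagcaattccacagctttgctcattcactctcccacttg
Omd, GRCr8 chr17:15274821-15275120, minus strand: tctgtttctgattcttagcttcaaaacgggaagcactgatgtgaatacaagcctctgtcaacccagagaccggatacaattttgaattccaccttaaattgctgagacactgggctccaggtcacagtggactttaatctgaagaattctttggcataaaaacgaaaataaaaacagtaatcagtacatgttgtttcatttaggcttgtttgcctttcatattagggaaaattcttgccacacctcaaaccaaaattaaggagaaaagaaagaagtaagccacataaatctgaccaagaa
The capitals mark every match, on either strand, to 6 motifs. These were the TATA box (TATAAA), the CCAAT box (CCAAT), the GC box (GGGCGG), the AP-1 element (TGANTCA), the RUNX core (TGTGGT) and the SMAD element (CAGAC).

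Matches to the motifs differed between these neighbours, and a match is a description of letters and not a binding site. The Lum promoter held 1 CCAAT box, 1 RUNX core and 3 SMAD elements, and the Kera promoter held 3 CCAAT boxes and none of the other motifs. The Ogn promoter held 1 RUNX core, 1 SMAD element and a run of TATA letters that matched on both strands with overlap. No letters of the Omd promoter matched. Among the 33469 promoters of the same length in the RefSeq table, 14.2% held the TATA box, 37.5% the CCAAT box, 33.1% the GC box, 7.33% the AP-1 element, 17.3% the RUNX core and 50.1% the SMAD element. The share of G and C was 50.7% for Lum, 40.7% for Kera, 46.0% for Ogn and 37.7% for Omd, against a median of 51.7% over all promoters. Promoters of 6 of the 9 members were matched in the table, and those of Fmod, with 1 CCAAT box, 1 GC box and 2 SMAD elements, and of Aspn, with none of the motifs, are not shown.

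None of the 9 members was higher by 2-fold or more on the Icariin array and none was lower by as much, where 6.51% of all genes were 2-fold higher and 7.01% 2-fold lower. At 1.5-fold, none was higher, against 16.4% of all genes. The values of 1 member, Omd, lay 1.5-fold apart on the lower side, as for 17.8% of all genes, but both lay below the background limit and are not read as a difference. The median log2 difference, Icariin minus DMSO, was 0.07 over the 9 members and -0.02 over all genes. Above the background limit lay 6 of 9 members on the Icariin array, against 44.2% of all genes, and 7 of 9 on the DMSO array, against 48.2%. On both arrays it was passed by 6 of 9 members, against 38.4% of all genes, namely Dcn, Bgn, Lum, Fmod, Ogn and Prelp. Their log2 differences lay between -0.01 and 0.28, with a median of 0.09. Over the 9291 genes above it on both arrays the median was -0.05, and 2.96% were 2-fold higher and 4.43% 2-fold lower. At 1.5-fold, none of the 6 members was higher or lower, against 10.3% of these genes that were higher and 14.6% that were lower. The largest absolute difference among these 6 members, 0.28, was not exceeded by 43.3% of those genes.

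**Figure D1:**
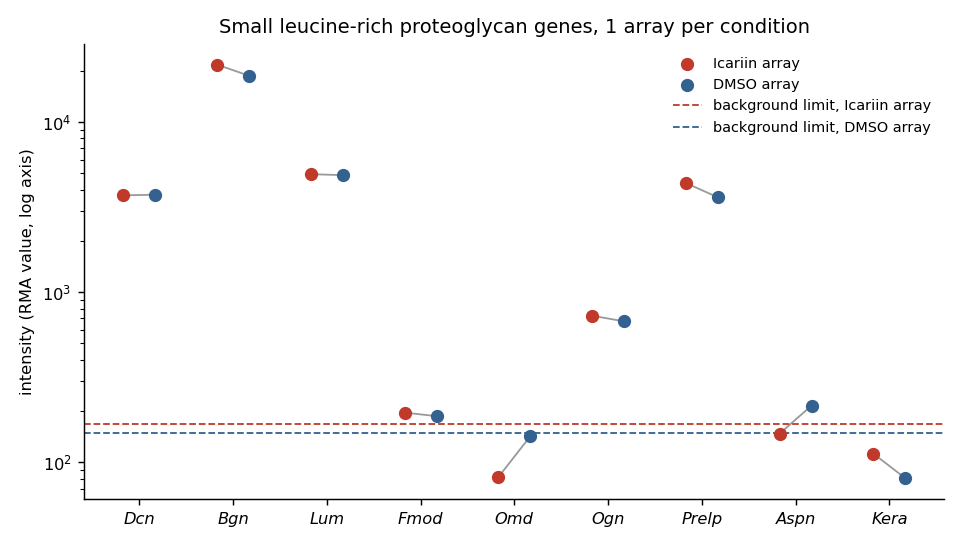
Intensity (RMA value, log axis) of the 9 small leucine-rich proteoglycan genes on the Icariin array (red, left) and on the DMSO array (blue, right), with the background limit of each array as a dashed line; each point is 1 array. Dcn, Bgn, Lum, Ogn and Prelp read close values on both arrays, Fmod lies just above the background limits, and Omd and Kera lie below them on both arrays.

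Decorin and biglycan are the close relatives in the family that bear chondroitin or dermatan sulfate. Dcn, which encodes decorin, a regulator of collagen fibril growth that also binds TGF-beta, read 3706 on the Icariin array and 3737 on the DMSO array. These values differed 1.01-fold, and the log2 difference of -0.01 took the other sign when the arrays were centred or smoothed on level. Bgn, which encodes biglycan, a matrix component of bone, read 21732 on the Icariin array and 18712 on the DMSO array. The Icariin value was 1.16-fold higher, a log2 difference of 0.22. Aspn, which encodes asporin, a relative of decorin that binds collagen and TGF-beta, read 147 on the Icariin array and 215 on the DMSO array. The Icariin value lay below the background limit, so the ratio is given as a bound, at least 1.28-fold lower with the Icariin value raised to 168. The DMSO value of 215 was close to the 99th percentile of receptor genes on that array, 214.

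Among Lum, Fmod, Omd and Kera, whose proteins can carry keratan sulfate, Lum and Fmod lay above the background limit on both arrays, and Omd and Kera on neither. Lum, which encodes lumican, needed for ordered collagen fibrils in cornea and skin, read 4933 on the Icariin array and 4872 on the DMSO array, a log2 difference of 0.02. Fmod, which encodes fibromodulin, a partner of collagen in tendon, read 196 on the Icariin array and 186 on the DMSO array. Both values lay above the background limits but below the 99th percentiles of receptor genes, which were 264 on the Icariin array and 214 on the DMSO array, so Fmod cannot be firmly placed above background. Omd, which encodes osteomodulin, also called osteoadherin, a proteoglycan of mineralized matrix, read 81.8 on the Icariin array and 142 on the DMSO array. Kera, which encodes keratocan, a proteoglycan of the corneal stroma, read 112 on the Icariin array and 80.5 on the DMSO array. Omd and Kera lay below the background limit on both arrays, and no ratio is read from them. For comparison, probes of random sequence read 78.4 on the Icariin array and 73.8 on the DMSO array.

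Prelp and Ogn are the remaining members. Prelp, which encodes a protein with a heparin-binding end rich in proline and arginine that anchors basement membranes to connective tissue, read 4378 on the Icariin array and 3608 on the DMSO array. The Icariin value was 1.21-fold higher, a log2 difference of 0.28, the largest among the 6 members above the background limit on both arrays. Ogn, which encodes osteoglycin, also called mimecan, a matrix protein of bone that carries keratan sulfate in the cornea, averaged 726 on the Icariin array and 673 on the DMSO array over its 2 sequences, a log2 difference of 0.11. The sequences went different ways. The sequence annotated as transcript variant 1, with a coding region of 897 bases, read 1079 on the Icariin array and 860.2 on the DMSO array, a log2 difference of 0.33. The sequence annotated as transcript variant 3, with a coding region of 1101 bases, read 489 on the Icariin array and 527 on the DMSO array, a log2 difference of -0.11.

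**Figure D2:**
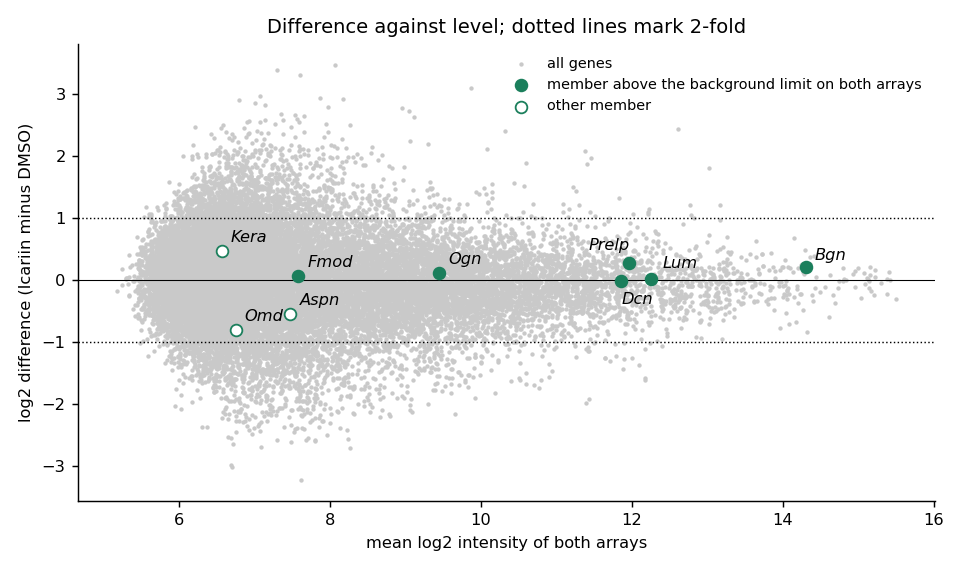
Log2 difference (Icariin minus DMSO) against the mean log2 intensity of both arrays for all genes (grey) and the 9 members (green, filled where above the background limit on both arrays); dotted lines mark 2-fold. All 9 members lie inside the dotted lines, and the 6 filled ones lie between -0.01 and 0.28.

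With no replicate arrays, the only spread at hand is that between sequences of a gene, which holds differences between probes and between transcripts and is no replicate error. Among the 487 genes with several sequences above the background limit on both arrays, the pooled SD of the log2 difference within a gene was 0.43, and the median distance between the highest and the lowest sequence was 0.40. The sequences of 170 of these genes (34.9%) disagreed in sign. The 2 Ogn sequences lay 0.43 apart, and 46.0% of those genes had sequences at least as far apart. The differences of all 6 members above the background limit on both arrays were smaller than the pooled SD. So was the median absolute log2 difference of all 9291 genes above that limit on both arrays, 0.33, so this does not set the members apart. The differences of Dcn, Bgn, Lum, Fmod and Prelp rest on 1 sequence each, measured by 5 probes.

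**Figure D3:**
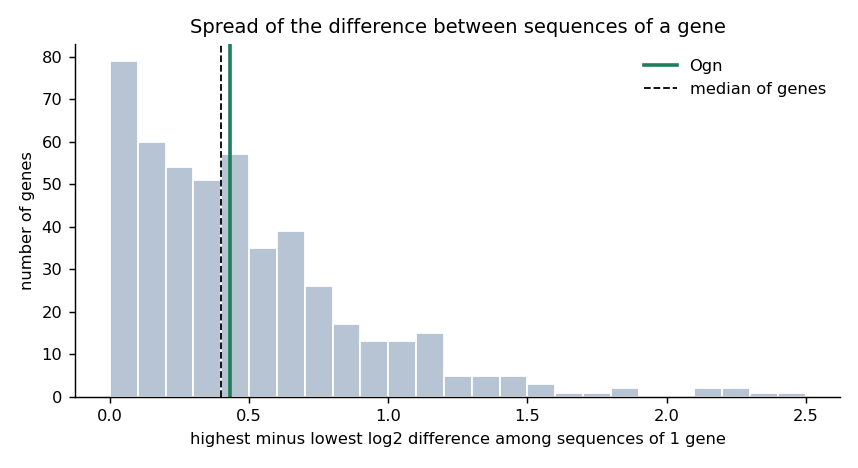
Number of genes (vertical axis) by the distance between the highest and the lowest log2 difference among the sequences of 1 gene (horizontal axis), for the 487 genes with several sequences above the background limit on both arrays. The distance for Ogn, 0.43 (green line), lies near the median of 0.40 (dashed line).

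Further family members and relatives were followed in a separate list. Of 6 such genes with a sequence on the array, none was 2-fold higher and none 2-fold lower, against 6.51% and 7.01% of all genes. Above the background limit on neither array were 4 of the 6, and 11149 of all 24210 genes. Podnl1, a podocan-like protein, read 622 on the Icariin array and 497 on the DMSO array, and Tsku, which encodes tsukushi, read 369.5 on the Icariin array and 414 on the DMSO array. Epyc, the next gene after Kera and known from cartilage, read 106 on the Icariin array and 69.1 on the DMSO array, below the background limit on both.

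Collagens that these proteins bind were higher on the Icariin array in 10 of 12 cases, none of them 2-fold, where 46.1% of all genes above the background limit on both arrays were higher by any amount. Their median log2 difference was 0.19, with all 12 above the background limit on both arrays. Col1a1, the main collagen of bone, read 39096 on the Icariin array and 33819.8 on the DMSO array, a log2 difference of 0.21, close to the 0.22 of Bgn. Col3a1, a collagen of soft connective tissue, read 23729 on the Icariin array and 17002 on the DMSO array, 1.40-fold higher. Col1a2 had a log2 difference of 0.12, and Col12a1 and Col5a3 were each 1.21-fold higher. Marrow stromal markers, which hold Col1a1 and Col1a2 as well, had a median of 0.22. Among them Postn was 1.67-fold higher, Pdgfrb had a log2 difference of 0.58, and Kitlg was at least 1.77-fold lower.

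Enzymes that build the sugar chains of proteoglycans included genes that differed 2-fold, and the enzymes were not compared with the core proteins. Among all genes, 6.51% were 2-fold higher and 7.01% 2-fold lower. Of 9 genes for the linker that joins a chain to the protein, 1, Xylt1, was 2-fold higher and none 2-fold lower, with a median of -0.06. Of the 6 above the background limit on both arrays none differed 2-fold, and their median was 0.18. Xylt1, the xylosyltransferase that starts the chain, read 191 on the Icariin array and 89.8 on the DMSO array, at least 1.14-fold higher. Ugp2, which makes UDP-glucose, was 1.88-fold lower, and Uxs1, which makes UDP-xylose, 1.72-fold higher. Of 16 genes for chondroitin and dermatan sulfate, 1 was 2-fold higher and none 2-fold lower, with a median of 0.20. The same counts held among the 10 above the background limit on both arrays, whose median was 0.21. Chsy3, a chondroitin synthase, was 2.44-fold higher, at 608 on the Icariin array and 249 on the DMSO array, whereas Chpf, a chondroitin polymerizing factor, was 1.94-fold lower, at 1199 on the Icariin array and 2328 on the DMSO array. Chst15, a chondroitin sulfotransferase, was at least 1.42-fold lower. A list of 17 genes held those for keratan sulfate, the supply of sulfate and the sulfation of tyrosines. None of the 17 was 2-fold higher and 1, St3gal1, was 2-fold lower, with a median of -0.18. Of the 9 above the background limit on both arrays none differed 2-fold, and their median was -0.15. St3gal1, a sialyltransferase, was at least 2.66-fold lower, Tpst1, which adds sulfate to tyrosines, 1.84-fold lower, and B3gnt2, which extends lactosamine chains, 1.71-fold lower.

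Proteases that cleave these proteins or process collagen had 2 of 16 genes 2-fold higher and none 2-fold lower, with a median of -0.03. Both lay among the 12 above the background limit on both arrays, whose median was 0.05. By comparison, 6.51% of all genes were 2-fold higher, and 2.96% of the genes above the limit on both arrays. Bmp1, the proteinase that removes the propeptide of biglycan, read 2567 on the Icariin array and 2734 on the DMSO array, and its 2 sequences differed in sign. Ctss, a cathepsin that is also among the macrophage markers, was 2.87-fold higher. Adamts1, a metalloproteinase that cleaves large proteoglycans, was 2.84-fold higher, at 4026 on the Icariin array and 1419 on the DMSO array. Mmp12, known as the macrophage elastase, was 1.98-fold higher.

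Ligands held by the family and receptors of its soluble members were followed last, where 6.51% of all genes were 2-fold higher and 7.01% 2-fold lower. Of 12 genes of TGF-beta and BMP signalling, 1, Tgfbr1, was 2-fold higher and none 2-fold lower, with a median of 0.12. Of the 9 above the background limit on both arrays none differed 2-fold, and their median was -0.06. Tgfb1, a ligand bound by decorin and biglycan, was 1.31-fold higher, Tgfbr1, a TGF-beta receptor, at least 1.19-fold higher, Bmp4, a bone morphogenetic protein, at least 1.02-fold higher, and Ltbp1, which stores latent TGF-beta, 1.61-fold lower. Of 14 receptor genes, 1, Tlr2, was 2-fold higher and 1, Met, was 2-fold lower, with a median of 0.06. Of the 8 above the background limit on both arrays 1 was 2-fold higher and none 2-fold lower, and their median was 0.10. Tlr2, through which soluble biglycan is known to signal in macrophages, was 2.51-fold higher, at 676 on the Icariin array and 269.7 on the DMSO array. Tlr4, its partner in that role, lay below the background limit on both arrays, at 114 on the Icariin array and 65.6 on the DMSO array. Cd14, a co-receptor and macrophage marker, was 1.22-fold higher. Egfr, a receptor that decorin is known to bind, was 1.45-fold higher, and Met, another, read 99.3 on the Icariin array and 252 on the DMSO array, at least 1.5-fold lower. Of the 19 macrophage markers, 18 read higher on the Icariin array by any amount, with Cd14 and Ctss among them, and 1 read lower. By comparison, 11749 of all 24210 genes read higher by any amount. The part of macrophage markers in these values, that of Tlr2 included, was not tested.

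**Figure D4:**
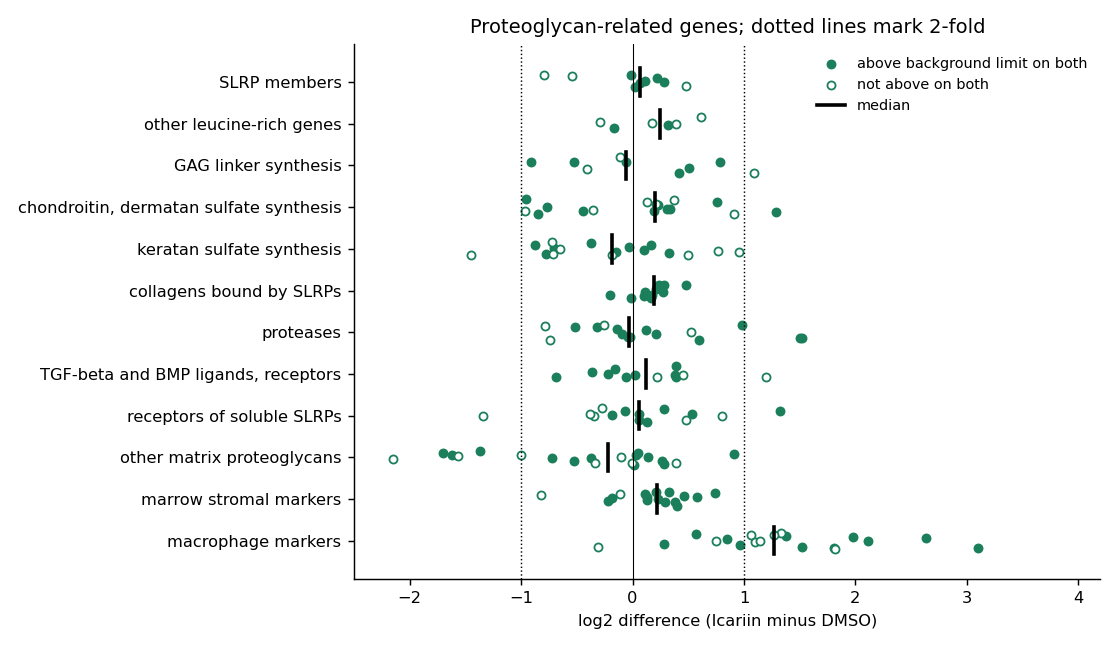
Log2 difference (Icariin minus DMSO, horizontal axis) of each gene in the 9 members, in lists of related genes and in the stromal and macrophage markers; each point is a gene, filled where above the background limit on both arrays, bars are medians and dotted lines mark 2-fold. The median of the members is 0.07, that of the collagens 0.19 and that of the macrophage markers 1.27.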

How the data were processed

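Total RNA was measured on NimbleGen rat arrays with Cy3 as the only dye, in 1 Icariin-treated and 1 DMSO-treated sample. For the deposited intensity values, the authors ran quantile normalization followed by RMA in NimbleScan, and the values are on a linear scale. Quantile normalization forces both arrays onto nearly one distribution, so a shift of all transcripts would not be seen. Neither the version of NimbleScan nor its background step is stated in the sources read here. The number of arrays limits the precision.

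Sequences were named through the RefSeq table of GRCr8, 20681 by gene identifier, 31 by transcript accession and 5707 by the file's symbol, and log2 values were averaged over the sequences of a gene (Python 3.11.15, pandas 2.3.3, statsmodels 0.14.6). The log2 difference was Icariin minus DMSO. The methods filter on fold change and name no fold, and 2-fold was used here, without a test. A fold is given as "at least" where the dimmer array was below the background limit, with values below 168 raised to it, a convention and not a sure bound. The calculation was run on simulated data with planted differences far larger than those of the members, which checks the arithmetic and not the detection of small differences. All 9 members were named, and of each other list up to 3 genes with the largest difference above the background limit, with Col1a1, Col1a2, Col3a1, Epyc, Tgfb1, Tlr2, Tlr4, Cd14, Bmp1, Actb and Gapdh. The 17 lists, with the members counted as 1 of them, were chosen with earlier results of these data known. The receptor genes behind the background limit were settled, as those matched by symbol, after values had been seen. Alternatives included the deposited value table, loess on level, centring, the brightest sequence, 64 added, the floor, folds of 1.5 and 3, filters, sequences in place of genes and other background limits. Genes nearest in level to 3 members were also to be named and are left out, since levels were not compared between genes. Ecm2, Podn and Hspg2 were not analysed here. One named gene of the osteoblast list, and the counts of that list, are not reported here.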

Additional observations from a re-analysis of the deposited data

How the results depend on the processing

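With no replicate arrays, there is no spread against which to judge how far a value moved. None of the 9 members was 2-fold higher or 2-fold lower under any alternative that kept the 2-fold threshold, nor at 3-fold. The median log2 difference of the members lay between 0.02 (values raised to 168) and 0.12 (arrays centred on genes above the background limit). With a fold of 1.5, 1 member, Omd, passed on the lower side and none on the higher, but Omd lay below the background limit on both arrays, and with values raised to 168 none passed. The log2 differences of Omd and Kera were then 0. The Dcn difference was -0.01 as reported, 0.04 after centring and 0.06 after loess on level, so it has no direction. The Ogn difference was 0.33 with its brighter sequence alone. With the 99th percentile of receptor genes as background limit, 5 members lay above it on the Icariin array and 6 on the DMSO array. The deposited value table gave 5 on the Icariin array and 7 on the DMSO array. Its values differ by at most 0.03, but it leaves out 6374 sequences, none above 100. Its 523 receptor genes set higher limits, 226 on the Icariin array and 185 on the DMSO array. Taste, defensin and sperm genes gave 6 members on each array. Receptor genes were first taken by symbol or description, 1491 in all, and were narrowed to those matched by symbol after the values had been seen. The first choice gave limits of 168 on the Icariin array and 147 on the DMSO array, with 6 members above the limit on the Icariin array and 7 on the DMSO array, the same counts as reported. No paired analysis was possible because each condition has 1 array. A difference as small as those of the members cannot be told from array-to-array variation, which was not measured.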

Other observations

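A further list held other proteoglycans, of the matrix, the cell surface and cell granules, which lack the small leucine-rich core. On the Icariin array 6 of its 20 genes were 2-fold lower and none 2-fold higher, with a median log2 difference of -0.22. By comparison, 7.01% of all genes were 2-fold lower. Of the 6, 3 lay above the background limit on both arrays, and of all genes above it on both, 4.43% were 2-fold lower. Spock2, a testican, read 287 on the Icariin array and 938 on the DMSO array, 3.26-fold lower. Bcan, which encodes brevican, a proteoglycan known from brain, was 3.07-fold lower, with log2 differences of -1.53 and -1.70 for its 2 sequences. Agrn, which encodes agrin and was named after its values were seen, was 2.58-fold lower, at 305 on the Icariin array and 786 on the DMSO array. Spock3, another testican, was at least 1.83-fold lower. Over the 13 genes of this list above the background limit on both arrays the median was 0.01.

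Markers of other connective tissue cells in which these proteoglycans are known were followed as well. For the counts below, 6.51% of all genes were 2-fold higher and 7.01% 2-fold lower. Of the genes above the background limit on both arrays, 2.96% were 2-fold higher and 4.43% 2-fold lower. Of the osteoblast genes, Bglap, which encodes osteocalcin, was at least 1.57-fold higher and Mepe at least 1.31-fold lower. The Icariin value of Bglap, 263, lay just below the 99th percentile of receptor genes there, 264. Of 6 tendon genes, 4 were 2-fold higher and 1 was 2-fold lower, with 3 not above the background limit on either array (median 1.13). Above the limit on both arrays were 2, of which 1, Egr1, was 2-fold higher and none 2-fold lower. Egr1, a growth-induced factor active in many cell types, read 14625 on the Icariin array and 2690.5 on the DMSO array. Scx, which encodes scleraxis, was 1.81-fold higher, and Egr2 was at least 1.19-fold higher. Of 9 chondrocyte genes, none was 2-fold higher and 2 were 2-fold lower (median -0.38), with 4 not above the background limit on either array, and none of the 3 above it on both arrays differed 2-fold. Comp was at least 1.31-fold lower, Acan read 51.1 on the Icariin array and 152 on the DMSO array, with no fold given because both lay below 168, and Sox9 was 1.42-fold lower. Col2a1 went the other way, at 314 on the Icariin array and 266 on the DMSO array, and 3 of the 9 were higher by any amount. Of 7 adipocyte genes, 1 was 2-fold higher and none 2-fold lower (median 0.16), and none of the 6 above the background limit on both arrays differed 2-fold. Cidec, a lipid droplet protein, was at least 2.60-fold higher, Pparg 1.31-fold higher and Fabp4 1.26-fold lower. Of 4 genes of corneal keratocytes, none was 2-fold higher and 1 was 2-fold lower (median -0.62), and none of the 3 above the background limit on both arrays differed 2-fold. Aldh1a1 was at least 2.63-fold, Aldh3a1 1.94-fold and Tkt 1.23-fold lower. Ptgds, the remaining gene of these 4, went the other way, at 2171 on the Icariin array and 2015 on the DMSO array. Actb and Gapdh, genes that most cells use, had log2 differences of -0.23 and -0.27.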
